A study of Homo sapiens with 36 samples.

Results

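U2OS cells that lacked ATF4 were compared after 24 h with a dimerizer that switches on the kinase PERK and without treatment (0 h). U2OS is a human osteosarcoma line. The comparison rests on 6 of the 36 RNA-seq libraries of the study, 3 per group, taken by the labels for genotype, treatment and time. All 57665 genes of the deposited count table were considered, and 19043 of them passed a filter on low counts and were tested. The treated group is ATF4KO, DmrPERK cells with dimerizer for 24 h at the single dose of the study, labelled without a unit. The untreated group is ATF4KO, DmrPERK cells labelled NT at 0 h. Wild-type (WT) DmrPERK cells with the same dimerizer for 24 h and WT cells labelled NT at 0 h, also 3 libraries each, give the change that ATF4-competent cells made over the same hours, and 3 knockout libraries at 16 h show what still moved late. All of these groups carry Dmr-PERK, the mouse PERK kinase domain joined to DmrB, a domain that pairs in the presence of the ligand AP20187. All were also grown with added non-essential amino acids and beta mercaptoethanol, the supplements on which ATF4-deficient cells are usually kept. Whether the knockout line is 1 clone, and how the gene was disrupted, is not stated. No cells with ligand but without Dmr-PERK were analysed here, so effects of the ligand and of the kinase cannot be told apart. Each condition had triplicate wells, with no statement that they were independent cultures, and the p-values measure well-to-well spread, which may be technical.

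PERK is 1 of the kinases that phosphorylate the translation factor eIF2. Phosphorylated eIF2 blocks its own exchange factor, eIF2B, which lowers general protein synthesis and raises translation of a few mRNAs with upstream reading frames, ATF4 among them. ATF4 is a transcription factor that switches on genes of amino acid synthesis and import, tRNA charging and redox balance, and, with its partner CHOP, genes that restore translation. This program is the integrated stress response (ISR). In cells without ATF4 the kinase and the block of eIF2B remain, and the main transcription factor of the program is missing.

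Library totals were 10308275, 13746600 and 14402997 counts at 24 h and 9520486, 11110956 and 15234889 counts untreated. Mitochondrial transcripts took 4.5 to 4.57% of the counts at 24 h, against 5.72 to 5.86% untreated. Levels are CPM, a gene's count scaled to the TMM-adjusted size of its library. Changes are log2 fold changes ± SE from edgeR's quasi-likelihood test with Benjamini-Hochberg adjustment, and positive values mean higher at 24 h. The SE was derived as the size of the change divided by the square root of the test's F statistic. "Rose", "fell" and "called" refer to an adjusted p under 0.05. Of the markers read in U2OS cells, VIM, COL1A1, SPARC, FN1 and RUNX2 were read in all 6 libraries. COL1A2, listed with them, averaged 0.39 ± 0.248 CPM at 24 h and 0.742 ± 0.199 CPM untreated (SD, n = 3 each), so this collagen chain was nearly absent. TERT and CDKN2A had 1 count each over the 24 h libraries and 0 untreated, the liver marker ALB had 1 and 1, and the blood marker PTPRC averaged 0.349 ± 0.114 CPM at 24 h and 0.524 ± 0.163 CPM untreated. The epithelial marker EPCAM averaged 3.44 ± 0.669 CPM at 24 h and 4.18 ± 0.692 CPM untreated. In the deposited TPM table, column 3 of the untreated knockout correlated with columns 1 and 2 at r = 0.47 and 0.46 across genes, against 0.949 to 0.966 among the 3 count libraries, so counts were used throughout. In bulk RNA, fewer cells of a kind and less RNA per cell cannot be told apart.

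ATF4, the targeted gene (chr22:39519695-39522685, GRCh38, + strand), was read at 719, 714 and 760 CPM at 24 h, against 259, 274 and 265 CPM untreated, a rise of 1.46 ± 0.03 (adjusted p = 2.3e-33). The 2 groups did not overlap, and WT cells had 690, 705 and 713 CPM at 24 h and 310, 323 and 322 CPM untreated. Gene-level counts cannot reveal a disrupted allele, so the label was checked by ATF4 targets instead. CHAC1, a glutathione-degrading enzyme and classical target, had 4 counts over the 3 libraries at 24 h and 5 untreated, while WT cells averaged 65.8 ± 1.05 CPM at 24 h and 8.26 ± 0.856 CPM untreated (SD, n = 3). FGF21, a secreted stress hormone, had 0 counts in all 6 knockout libraries, and WT cells averaged 4.33 ± 0.31 CPM at 24 h and 0.1 ± 0.0308 CPM untreated.

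The knockout cells had a different transcriptome after 24 h although ATF4 was missing. Of all tested genes 65.4% were called, 32.4% higher and 33% lower, and the median change was −0.03. Most changes were small. By at least 2-fold, 1158 genes were higher (6.08%) and 2525 lower (13.3%), and by at least 4-fold 123 were higher and 807 lower. The genes called higher took 56.4% of the CPM at 24 h, against 39.1% untreated, and those called lower 30.7%, against 47.2%. Both sets were chosen from the same libraries, so only the sizes of these shares are informative, not their directions. In WT cells 33% were higher and 32.4% lower. With so many genes called, a list counts as moved together below only by its share of calls in 1 direction and its median beside those of all genes. The groups did not overlap for 68.7% of all tested genes.

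**Figure D1:**
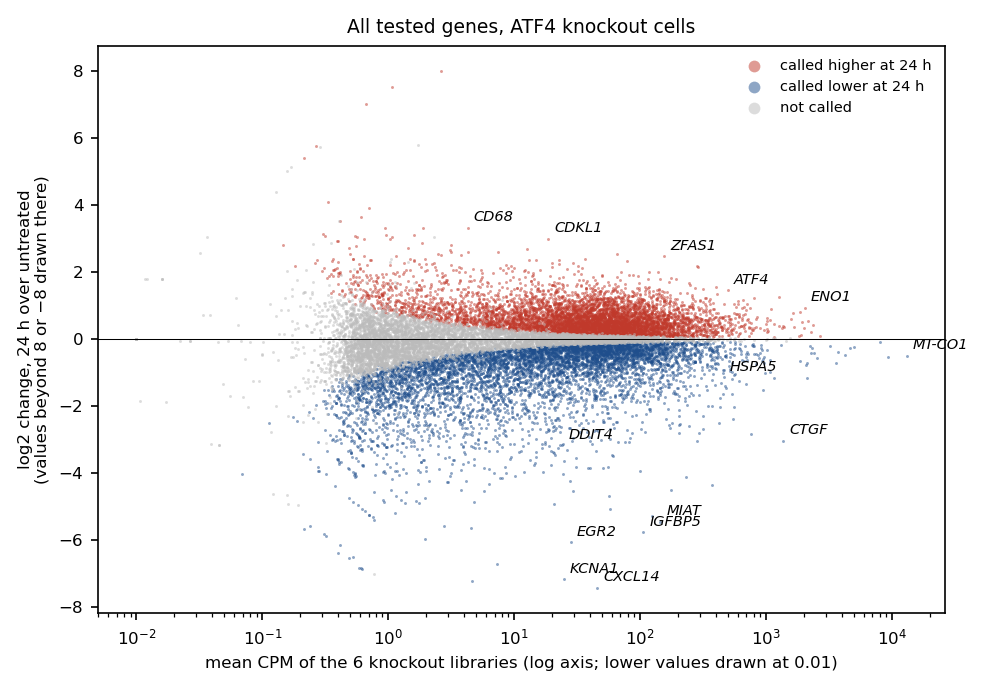
Each point is 1 of the 19043 tested genes: the x axis gives the mean CPM of the 6 knockout libraries (log axis) and the y axis the log2 change, 24 h over untreated; red genes were called higher, blue lower, grey were not called. By at least 4-fold, more genes were called lower (807) than higher (123), with CXCL14 at −7.42 and KCNA1 at −7.16. The highest change of any tested gene was 8.98, and values beyond the plotted range are drawn at its edge.

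Of 9 genes of eIF2 kinases and of the phosphatase that opposes them, 5 rose and 1 fell (median 0.13). EIF2AK3, the gene of PERK itself, had 1200, 1147 and 1157 CPM at 24 h, against 850, 837 and 862 CPM untreated (0.46 ± 0.03). Reads of the mouse kinase domain may be part of these values, since the table has no entry for the construct. The sister kinase genes EIF2AK1 and EIF2AK4, which sense heme and mitochondrial stress and uncharged tRNA, also rose, EIF2AK1 by 0.13 ± 0.03 and EIF2AK4 by 0.13 ± 0.04. A TPM set without the untreated column that stood apart (the matching TPM columns) held untreated columns 1 and 2 and the 3 treated columns. Untreated columns 1 and 2 each best matched an untreated knockout count library of another number. On this set the change of EIF2AK1 was 0.012 and not called. PPP1R15A (GADD34), the stress-induced subunit of the phosphatase that reverses eIF2 phosphorylation, had 94.5, 110 and 112 CPM at 24 h, against 58.1, 62.6 and 60.7 CPM untreated (0.81 ± 0.06, adjusted p = 2.1e-15), while its constitutive relative PPP1R15B fell slightly (−0.17 ± 0.04). All 10 genes of eIF2 and eIF2B subunits and eIF2A rose, with a median of 0.69. EIF2S1, the subunit that PERK phosphorylates, had 404, 421 and 446 CPM at 24 h and 243, 233 and 233 CPM untreated (0.85 ± 0.03), and EIF2B3, a subunit of the exchange factor, rose by 1.76 ± 0.07.

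ISR transcription factors split. Of 17 tested, 5 rose and 10 fell, with a median of −0.37, where WT cells had 12 higher and 4 lower with a median of 1.14. CEBPG, the bZIP partner of ATF4, had 73.2, 75.7 and 86.6 CPM at 24 h, against 22.4, 22.6 and 19.3 CPM untreated, and its rise of 1.90 ± 0.07 differed from that in WT cells by only −0.01 ± 0.09 (adjusted p = 0.95). NFIL3, a bZIP repressor, also rose (1.14 ± 0.07). Other factors fell or changed little. DDIT3, the gene of CHOP, had 25.2, 28.8 and 31.2 CPM at 24 h, against 23.5, 23.3 and 25.2 CPM untreated: the lowest treated and the highest untreated library were both at 25.2 CPM, and the change was 0.25 ± 0.09 (adjusted p = 0.012). It was 0.16 without treated library 3 and 0.21 on the matching TPM columns, and not called in either case. ATF3, an early stress repressor, had 45.9, 50.7 and 58.9 CPM at 24 h, against 122, 140 and 129 CPM untreated (−1.32 ± 0.11). CEBPB, another C/EBP family member, fell by 0.98 ± 0.07 on the log2 scale, and WT cells had 171 ± 8.14 CPM at 24 h against 75.7 ± 4.06 CPM untreated. NUPR1, a small stress-induced chromatin protein, had 1.15, 1.45 and 1.39 CPM at 24 h, against 7.17, 11 and 9.7 CPM untreated (−2.80 ± 0.21), and JDP2, an AP-1 repressor, fell as well (−2.38 ± 0.16). Among the membrane-bound factors of the unfolded protein response and their relatives, ATF6B (−0.97 ± 0.05) and CREB3L2 (−1.19 ± 0.07) fell.

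ISR effectors did not rise as a group. Of 20 tested, 4 rose and 10 fell (median −0.19), where WT cells had 17 higher and 3 lower (median 1.91). DDIT4 (REDD1), an inhibitor of mTORC1, had 3.75, 5.35 and 5.3 CPM at 24 h, against 42.3, 45.1 and 43.8 CPM untreated, a fall of 3.16 ± 0.13 on the log2 scale (adjusted p = 4.5e-24). GDF15, a secreted stress cytokine, had 5.29, 4.19 and 5.44 CPM at 24 h, against 31.9, 35.9 and 28.5 CPM untreated (−2.68 ± 0.13). Neither gene's groups came near each other, and both genes rose in WT cells, by 2.15 ± 0.06 and 0.93 ± 0.09. ADM2, a peptide hormone gene induced by ATF4, fell too (−2.58 ± 0.21), and VLDLR, a lipoprotein receptor gene, fell by 0.71 ± 0.09 on the log2 scale. The 4 members that rose were TRIB3, TXNIP, GADD45A and CTH. TRIB3, a pseudokinase that restrains the response, had 42.2, 40.8 and 41.8 CPM at 24 h, against 23.9, 21 and 22.4 CPM untreated (0.89 ± 0.07), while WT cells averaged 423 ± 11.3 CPM at 24 h. TXNIP, an inhibitor of thioredoxin, rose by 1.45 ± 0.11, and GADD45A, a growth-arrest gene, by 0.45 ± 0.05. SESN2, a leucine sensor upstream of mTORC1, had 28.8, 25.9 and 25.4 CPM at 24 h and 23.5, 25.6 and 23.7 CPM untreated, with overlapping groups (adjusted p = 0.23).

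**Figure D2:**
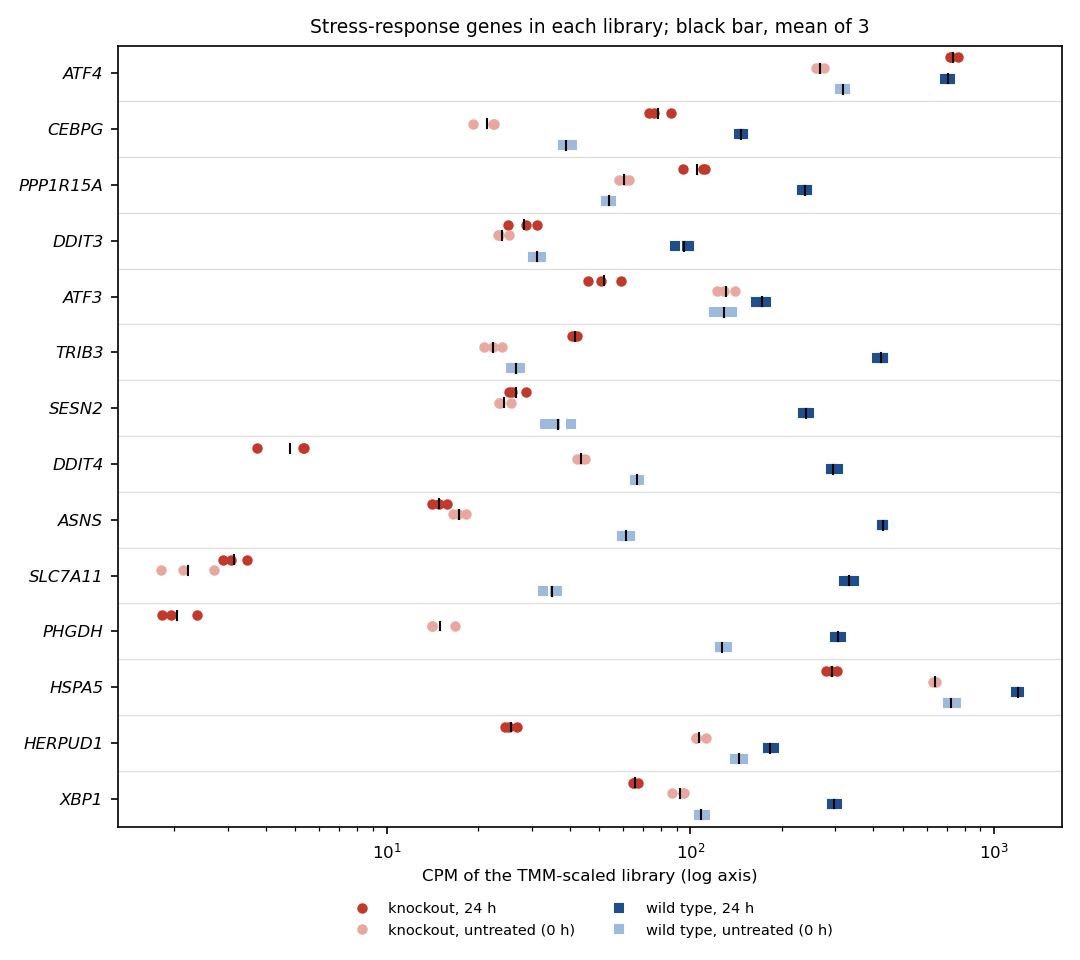
Each row is a gene and each point 1 library, with CPM on a log axis; circles are knockout and squares wild-type cells, dark at 24 h and pale untreated, and the black bar is the mean of 3. The 24 h wild-type squares of TRIB3, ASNS, SLC7A11 and DDIT4 stand right of all other points of their row, while the 24 h knockout circles of DDIT4, PHGDH, HSPA5 and HERPUD1 stand left of their untreated circles.

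ASNS, asparagine synthetase, is among the best-studied ATF4 targets, and its promoter is shown because it carries the composite site that a C/EBP factor and ATF4 bind. The 300 bases run from 250 before to 50 after the RefSeq start (GRCh38.p14, chr7:97872359-97872658 (- strand)), 5′ to 3′ in the direction of transcription, and the capitals mark the match to TGATGNAAN, which starts at −68.
ASNS promoter: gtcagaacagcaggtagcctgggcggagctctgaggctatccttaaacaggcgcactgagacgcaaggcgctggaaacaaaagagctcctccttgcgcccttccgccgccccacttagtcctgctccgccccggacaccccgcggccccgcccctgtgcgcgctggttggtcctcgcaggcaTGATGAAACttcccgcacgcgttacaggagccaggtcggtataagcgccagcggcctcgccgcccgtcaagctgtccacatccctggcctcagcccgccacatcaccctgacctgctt

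TGATGNAAN was searched on both strands and is in 3.61% of the 35116 RefSeq promoter windows. It was present in 4 of the 14 amino acid synthesis genes that had a window. ASNS mRNA had 15.8, 14.9 and 14.1 CPM at 24 h, against 16.5, 18.2 and 17.2 CPM untreated in knockout cells (−0.22 ± 0.09, adjusted p = 0.028), and 431, 428 and 429 CPM at 24 h against 63.3, 59.7 and 61.2 CPM untreated in WT cells. All 3 knockout libraries at 24 h were below the untreated ones, by a small margin, and the call was lost without untreated library 2 or 3 or treated library 2 or 3 (−0.22 to −0.18). On the matching TPM columns with a pseudocount of 1 its change was −0.43.

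Amino acid and folate enzymes, a list that includes ASNS, rose more often than they fell but did not move as 1 block. Of 20 tested, 12 rose and 5 fell (median 0.32), beside 32.4% and 33% of all tested genes (median −0.03). WT cells had 17 higher and 3 lower (median 1.61). PHGDH, the first enzyme of serine synthesis from glycolysis, had 1.83, 1.95 and 2.37 CPM at 24 h, against 14.1, 16.8 and 14.2 CPM untreated (−2.85 ± 0.15), and PSAT1, the second, had 10.4, 11.3 and 10.6 CPM at 24 h, against 13.3, 11.5 and 12.1 CPM untreated (adjusted p = 0.094). PSPH, the last of the 3, rose by 0.83 ± 0.12. MTHFD2, the mitochondrial folate dehydrogenase, rose by 1.29 ± 0.05, its cytosolic relative MTHFD1 by 1.22 ± 0.04 and SHMT2, which transfers the serine carbon to folate, by 0.46 ± 0.05. PYCR1, the last enzyme of proline synthesis, rose by 1.15 ± 0.04, while OAT, which links ornithine to proline, fell by 0.90 ± 0.04 and GLUL, glutamine synthetase, by 1.89 ± 0.10. CTH, which makes cysteine from cystathionine, rose by 0.32 ± 0.11, against 3.32 ± 0.06 in WT cells, and was not called without treated library 3 (0.29) or on the matching TPM columns (0.052 and 0.059).

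Amino acid transporters were divided, with 8 of 15 higher and 6 lower (median 0.12). SLC1A5, a glutamine carrier, had 105, 103 and 115 CPM at 24 h, against 59.9, 56.1 and 53.6 CPM untreated (0.95 ± 0.05), and the glutamine carrier gene SLC38A1 rose by 0.88 ± 0.06. SLC7A5, the leucine exchanger, had 150, 154 and 152 CPM at 24 h, against 233, 234 and 245 CPM untreated (−0.65 ± 0.05), although its partner chain SLC3A2 rose slightly (0.19 ± 0.05). SLC38A2 (SNAT2), an amino acid carrier known for its response to starvation, fell by 0.71 ± 0.05. SLC7A11, the cystine importer, was read at 3.08, 2.89 and 3.48 CPM at 24 h and 2.7, 2.14 and 1.81 CPM untreated (0.56 ± 0.21, adjusted p = 0.018). Without untreated library 3 or treated library 3 its change was 0.41 or 0.45 and not called, and with log2(TPM + 1) it was 0.063 on the matching columns and −0.03 on all columns, again not called.

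Enzymes that charge tRNAs rose nearly as a block. Of 20 cytosolic tRNA synthetases 18 rose and 1 fell, with a median of 0.68. FARSB, a chain of the phenylalanine enzyme, had 113, 108 and 118 CPM at 24 h, against 31.7, 28.4 and 25.1 CPM untreated (2.01 ± 0.06). VARS, for valine, rose by 1.38 ± 0.03 and IARS, for isoleucine, by 1.17 ± 0.03, while QARS, for glutamine, fell by 0.75 ± 0.04. GARS, for glycine, rose by 0.72 ± 0.04 and WARS, for tryptophan, by 0.80 ± 0.07, each with a smaller change than in WT cells, where they rose by 2.06 ± 0.03 and 2.52 ± 0.05. The knockout change was below the WT change for 12 of the 20 enzymes, against 12.1% of all tested genes, and above it for 6, against 17.7%. Above it were FARSB (difference 0.62 ± 0.08) and VARS (0.23 ± 0.05).

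Genes of protein folding in the endoplasmic reticulum (ER) fell together. Of 26 tested ER chaperones and degradation factors, 22 fell and 2 rose, with a median of −0.60, where WT cells had 9 higher and 14 lower (median −0.14). HSPA5, the chaperone BiP (chr9:125234853-125241330, GRCh38), had 279, 291 and 304 CPM at 24 h, against 642, 630 and 637 CPM untreated (−1.12 ± 0.03, adjusted p = 2.6e-30). HSP90B1 (GRP94), the ER member of the HSP90 family, had 324, 323 and 334 CPM at 24 h, against 747, 752 and 747 CPM untreated (−1.19 ± 0.02). HERPUD1, a membrane scaffold of ER-associated degradation, had 24.6, 27 and 25.4 CPM at 24 h, against 104, 104 and 113 CPM untreated (−2.06 ± 0.05). For each of these 3 genes every treated library was below every untreated one. The disulfide isomerase gene PDIA4 fell by 1.20 ± 0.04, SEL1L, the adaptor of the HRD1 ubiquitin ligase, by 0.58 ± 0.04, and EDEM1, a lectin of the same route, by 0.83 ± 0.05. XBP1, the transcription factor spliced by IRE1, had 65.3, 64.7 and 67.3 CPM at 24 h, against 87.3, 95 and 94.6 CPM untreated (−0.49 ± 0.05). Gene counts do not show its splicing. The 2 that rose were CANX, calnexin (0.16 ± 0.03), and SIL1, the nucleotide exchange factor of BiP (0.35 ± 0.08).

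Promoters of 5 of these genes are shown because they carry the ER stress response element, here the letters CCAAT and CCACG with 9 bases between them on either strand, through which ATF6 and XBP1 are known to act. All windows are RefSeq's (GRCh38.p14), 250 bases before to 50 after the start in the direction of transcription, with each match in capitals. They are at chr9:125241294-125241593 (- strand) for HSPA5, chr12:103930160-103930459 (+ strand) for HSP90B1, chr19:12938359-12938658 (+ strand) for CALR, chr2:10812736-10813035 (- strand) for PDIA6 and chr22:49918384-49918683 (+ strand) for CRELD2.
HSPA5 promoter: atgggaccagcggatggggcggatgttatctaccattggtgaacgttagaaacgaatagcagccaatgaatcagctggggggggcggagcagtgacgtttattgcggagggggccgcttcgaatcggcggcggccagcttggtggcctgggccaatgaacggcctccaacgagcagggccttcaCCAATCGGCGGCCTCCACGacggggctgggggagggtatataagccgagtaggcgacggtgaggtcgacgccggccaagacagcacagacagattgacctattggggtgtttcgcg
HSP90B1 promoter: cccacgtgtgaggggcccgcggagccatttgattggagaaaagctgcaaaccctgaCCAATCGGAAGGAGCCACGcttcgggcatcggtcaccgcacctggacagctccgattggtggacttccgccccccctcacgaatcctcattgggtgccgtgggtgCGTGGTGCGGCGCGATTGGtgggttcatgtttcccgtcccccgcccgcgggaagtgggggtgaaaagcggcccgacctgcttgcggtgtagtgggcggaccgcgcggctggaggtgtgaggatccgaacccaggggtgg
CALR promoter: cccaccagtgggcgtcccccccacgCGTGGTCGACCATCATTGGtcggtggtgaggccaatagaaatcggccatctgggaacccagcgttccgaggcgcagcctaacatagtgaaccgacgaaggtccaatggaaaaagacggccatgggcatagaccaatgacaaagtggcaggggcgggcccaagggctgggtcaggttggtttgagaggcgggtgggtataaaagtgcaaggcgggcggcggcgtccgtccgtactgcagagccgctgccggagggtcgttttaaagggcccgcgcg
PDIA6 promoter: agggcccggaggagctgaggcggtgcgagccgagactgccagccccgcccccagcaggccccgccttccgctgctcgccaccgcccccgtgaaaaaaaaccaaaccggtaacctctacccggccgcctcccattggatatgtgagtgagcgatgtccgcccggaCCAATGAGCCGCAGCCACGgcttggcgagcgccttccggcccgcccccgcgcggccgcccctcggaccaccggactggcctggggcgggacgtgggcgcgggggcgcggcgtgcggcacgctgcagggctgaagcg
CRELD2 promoter: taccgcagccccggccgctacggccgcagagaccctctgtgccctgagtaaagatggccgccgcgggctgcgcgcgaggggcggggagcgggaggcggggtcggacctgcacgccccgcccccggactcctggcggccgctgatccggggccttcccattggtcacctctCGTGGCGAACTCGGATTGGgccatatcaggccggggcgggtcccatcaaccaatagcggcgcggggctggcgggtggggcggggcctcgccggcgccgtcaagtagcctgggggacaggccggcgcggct

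The match starts at −66 in HSPA5, at −194 and −89 in HSP90B1, at −225 in CALR, at −86 in PDIA6 and at −80 in CRELD2. Only 27 of the 35116 promoter windows (0.0769%) hold these letters, and 6 of the 24 list members with a window do, the sixth being CANX. CALR, calreticulin, had 389, 402 and 403 CPM at 24 h, against 641, 628 and 609 CPM untreated (−0.65 ± 0.03), PDIA6, a disulfide isomerase, fell by 0.76 ± 0.03 and CRELD2, a secreted ER protein, by 0.71 ± 0.05. Over the whole genome the element was in the windows of 18 tested genes, of which 4 rose and 12 fell (median −0.63). These include the list members, and a match is not evidence of binding. Genes of protein entry into the ER and of export from it showed no common direction, with 10 of 24 higher and 11 lower (median −0.00). Among them SRPRB, a subunit of the signal recognition particle receptor, rose by 0.75 ± 0.07 and SSR2, a translocon-associated chain, fell by 0.55 ± 0.04.

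Cholesterol synthesis and uptake fell without an exception among the called genes: 21 of 23 fell and 0 rose, with a median of −1.60. INSIG1, which holds the SREBP pathway in check and is itself its target, had 4.42, 4.99 and 5.09 CPM at 24 h, against 53.6, 57.9 and 59.9 CPM untreated (−3.56 ± 0.11). SREBF2, the transcription factor of the pathway, had 189, 182 and 177 CPM at 24 h, against 479, 493 and 483 CPM untreated (−1.41 ± 0.03). STARD4, a sterol carrier, fell by 2.79 ± 0.06 and FDFT1, squalene synthase, by 1.85 ± 0.04. The WT cells moved the same way, with 22 of 23 lower, and the difference between the genotypes was negative for 10 and positive for 2 members. Fatty acid genes were less uniform, with 6 of 20 higher and 11 lower (median −0.30). FADS2, the delta-6 desaturase, had 47.9, 49.7 and 49.3 CPM at 24 h, against 283, 294 and 289 CPM untreated (−2.56 ± 0.05), and the desaturase gene SCD fell by 1.30 ± 0.03. ACSL1, which activates long-chain fatty acids, rose by 0.77 ± 0.05.

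Lysosomal genes fell: 26 of 29 fell and 1 rose, with a median of −0.63. NPC2, which carries cholesterol out of lysosomes, had 74.2, 75.4 and 76.5 CPM at 24 h, against 223, 220 and 216 CPM untreated (−1.54 ± 0.03). GRN, progranulin, fell by 1.47 ± 0.03, the protease genes TPP1 and CTSD by 1.22 ± 0.04 and 0.94 ± 0.04, and the membrane protein gene LAMP1 by 0.38 ± 0.02. For 18 members the knockout change was below the WT change by the test of the difference, and for 0 it was above it, beside 12.1% and 17.7% of all tested genes. Autophagy genes split, with 10 of 25 higher and 13 lower (median −0.18). SQSTM1 (p62), a receptor for ubiquitinated cargo, had 237, 241 and 246 CPM at 24 h, against 342, 360 and 361 CPM untreated (−0.55 ± 0.03), and WIPI1, which acts at the growing autophagosome, fell by 1.69 ± 0.09. ATG3, a lipid-conjugating enzyme of the pathway, rose by 0.90 ± 0.05, and TFE3, a transcription factor for lysosome and autophagy genes, by 0.31 ± 0.03.

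Genes for making ribosomes rose in every tier. All 34 ribosome biogenesis genes rose, with a median of 1.15, and all 34 rose in WT cells as well (median 0.90). DKC1, the pseudouridine synthase of the small nucleolar particles, had 369, 377 and 383 CPM at 24 h, against 127, 123 and 121 CPM untreated (1.61 ± 0.04), UTP4, a factor of small-subunit assembly, rose by 1.70 ± 0.04 and nucleolin (NCL) by 1.05 ± 0.03. Subunits and factors of RNA polymerases I and III were higher for 25 of 29 and lower for 1. POLR3G, a subunit that marks proliferating cells, had 60, 60.6 and 62.1 CPM at 24 h, against 12.9, 11.5 and 10.7 CPM untreated (2.40 ± 0.08), and its alternative POLR3GL was the member that fell (−0.60 ± 0.10). Proteins of the cytosolic ribosome were higher for 76 of 86 and lower for 2 (median 0.35), a list matched by symbol that also holds paralogues such as RPL22L1 (1.89 ± 0.05). RPL8, of the large subunit, had 2338, 2357 and 2474 CPM at 24 h and 1375, 1362 and 1357 CPM untreated, and RPL7A, in contrast, fell by 0.47 ± 0.02. Proteins of the mitochondrial ribosome were higher for 70 of 78 and lower for 1 (median 0.71), with MRPL12 at 1.27 ± 0.05 and MRPL1 at 1.54 ± 0.06.

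Host genes of small nucleolar RNAs, whose spliced transcripts end in nonsense-mediated decay when translated, rose for 16 of 19 and fell for 2 (median 1.07). GAS5 had 442, 466 and 511 CPM at 24 h, against 105, 102 and 113 CPM untreated (2.15 ± 0.05), ZFAS1 rose by 2.47 ± 0.05 and SNHG5 by 2.53 ± 0.07. SNHG14 and SNHG18 were the 2 that fell. WT cells also had 16 of these host genes higher and 2 lower (median 1.09). Factors of nonsense-mediated decay themselves rose for 13 of 14 and fell for 1 (median 0.61), with SMG5 at 0.80 ± 0.03. Translation factors rose for 28 of 34 and fell for 4 (median 0.60). EIF3B, a scaffold of the initiation factor eIF3, had 782, 811 and 832 CPM at 24 h, against 395, 386 and 389 CPM untreated (1.05 ± 0.03). EIF4EBP1, the repressor of cap-dependent initiation, had 50.7, 47.9 and 54.8 CPM at 24 h, against 20.6, 15.6 and 15.6 CPM untreated (1.59 ± 0.09), while its relative EIF4EBP2 fell by 0.88 ± 0.05. SR and hnRNP proteins, which guide splicing, rose for 19 of 27 and fell for 3 (median 0.23), with the members that fell, SRSF5, SRSF6 and SRSF7, at −0.24 ± 0.04, −0.41 ± 0.03 and −0.20 ± 0.04. Purine and pyrimidine synthesis rose for 16 of 17 and fell for 1 (median 0.83), for example ADSL, adenylosuccinate lyase (1.27 ± 0.03), and CAD, the enzyme that starts pyrimidine synthesis (1.25 ± 0.04).

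**Figure D3:**
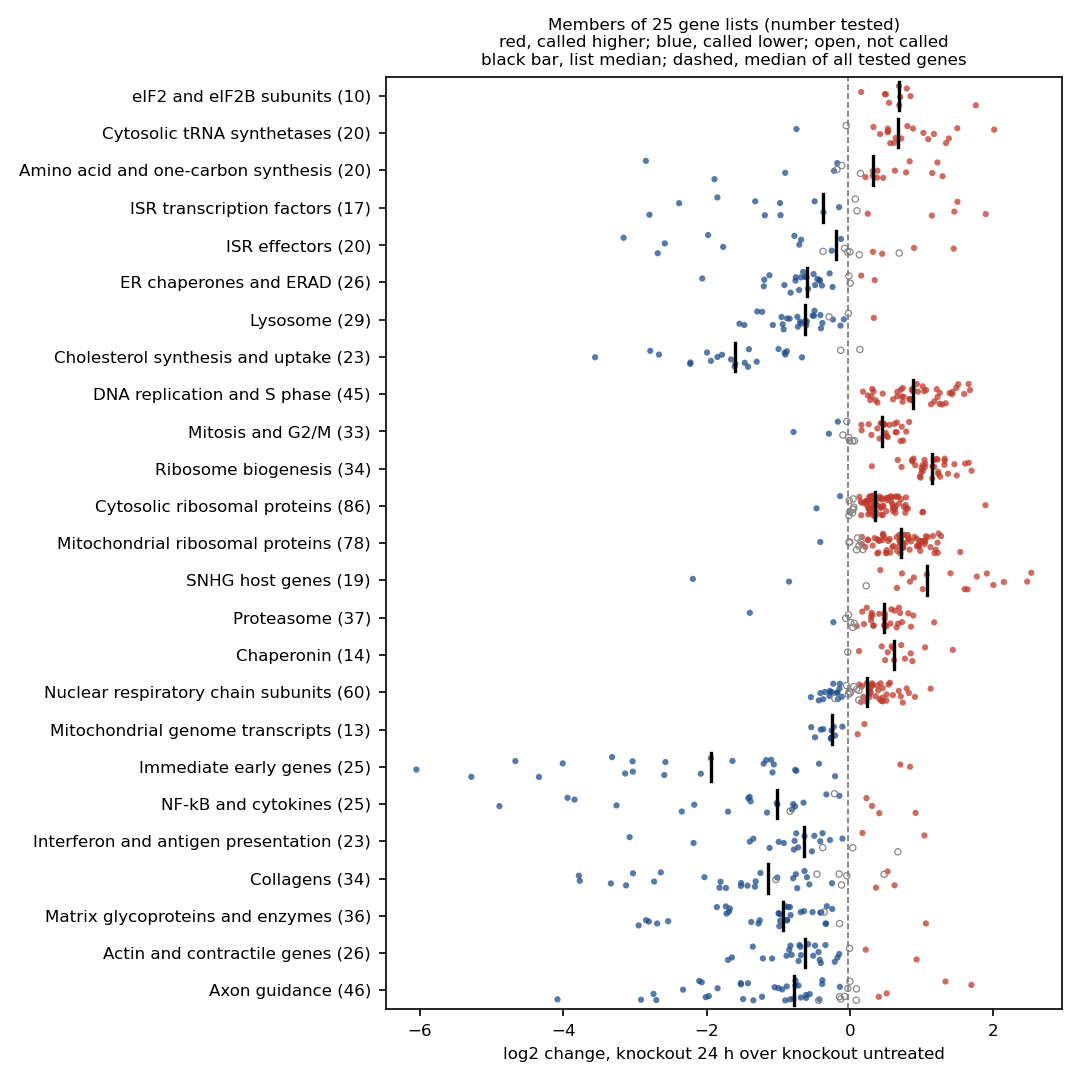
Each point is a tested member of 1 of 25 gene lists, placed by its log2 change in knockout cells, 24 h over untreated; red points were called higher, blue lower and open points were not called, and the black bar is the median of the list. Ribosome biogenesis (median 1.15) and DNA replication (0.88) lie wholly right of the all-gene median of −0.03, and immediate early (−1.94) and cholesterol genes (−1.60) lie furthest left.

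The S-phase and replication list was higher without an exception: all 45 genes rose (median 0.88). Their summed level was 4472 to 4541 CPM at 24 h, against 2335 to 2688 CPM untreated. Promoters of 2 members are shown because they hold the E2F site spelled TTTGGCGC (GRCh38.p14 RefSeq windows as above, chr17:40287629-40287928 (+ strand) for CDC6 and chr20:33686336-33686635 (- strand) for E2F1, match in capitals).
CDC6 promoter: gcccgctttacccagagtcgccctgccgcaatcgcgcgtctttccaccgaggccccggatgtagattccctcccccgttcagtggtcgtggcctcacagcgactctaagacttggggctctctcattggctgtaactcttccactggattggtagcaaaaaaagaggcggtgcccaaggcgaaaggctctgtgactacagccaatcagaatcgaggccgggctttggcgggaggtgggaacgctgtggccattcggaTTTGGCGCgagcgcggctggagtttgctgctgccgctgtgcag
E2F1 promoter: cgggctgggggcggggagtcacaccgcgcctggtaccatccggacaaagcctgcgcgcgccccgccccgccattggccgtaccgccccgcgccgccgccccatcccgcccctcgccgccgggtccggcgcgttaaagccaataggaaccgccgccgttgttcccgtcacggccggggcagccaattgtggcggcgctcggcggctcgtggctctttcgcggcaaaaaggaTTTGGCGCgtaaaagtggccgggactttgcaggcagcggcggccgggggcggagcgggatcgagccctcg

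TTTGGCGC, read on both strands, was in 0.652% of all promoter windows and in 9 of the 38 replication genes with a window. The median change was 0.86 for tested members with the site and 0.91 for the others, which include members without a window. A different E2F spelling, TTTCCCGC, was in 11 of the 38 genes, and all of these except DUT are among the others. The medians therefore do not compare genes with and without an E2F site. TTTGGCGC starts at 7 in CDC6 and at −20 in E2F1. CDC6, which loads the replicative helicase, had 146, 147 and 158 CPM at 24 h, against 53.5, 44.7 and 44.7 CPM untreated (1.68 ± 0.06). E2F1, the transcription factor of S-phase entry, had 84.9, 90.2 and 92.1 CPM at 24 h, against 34.9, 33.5 and 31.6 CPM untreated (1.43 ± 0.05). MCM2, a subunit of that helicase, rose by 1.13 ± 0.05, CCNE1, cyclin E1, by 0.83 ± 0.06, UHRF1, which maintains DNA methylation, by 1.34 ± 0.05 and PCNA, the polymerase clamp, by 0.38 ± 0.05. The rise exceeded the WT change for 37 of the 45 and was below it for 1, where 17.7% and 12.1% of all tested genes were called in those directions. Mitotic genes rose for 24 of 33 and fell for 3 (median 0.44, against 0.04 in WT cells), and 25 of them changed more in the positive direction than in WT cells, with 0 in the other. CDC20, an activator of the anaphase-promoting complex, had 221, 233 and 243 CPM at 24 h, against 155, 148 and 142 CPM untreated (0.65 ± 0.04), and CCNB1, cyclin B1, rose by 0.16 ± 0.04, a call that was lost on the matching TPM columns (0.12). KIF20A, DLGAP5 and PTTG1 were the 3 that fell (−0.79 ± 0.07, −0.29 ± 0.05 and −0.17 ± 0.05), and the fall of PTTG1 was −0.08 and not called without untreated library 2.

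Regulators of G1 were mostly lower, both inhibitors and D cyclins. Of 22 genes of D cyclins, CDK inhibitors and p53 targets, 16 fell and 2 rose (median −0.23). CDKN1C (p57) had 2.59, 2.75 and 2.79 CPM at 24 h, against 22.4, 25.1 and 22.4 CPM untreated (−3.09 ± 0.15), and CDKN2B (p15) had 5.29, 5.71 and 6.06 CPM at 24 h, against 32.7, 36 and 36.3 CPM untreated (−2.62 ± 0.10). The antiproliferative gene BTG2 fell by 2.08 ± 0.07, CDKN1A (p21) by 0.68 ± 0.04 and CCND1, cyclin D1, by 0.16 ± 0.03. CDK4, a partner kinase of cyclin D, was among the 2 that rose (0.60 ± 0.03). Of 88 replication-dependent histone genes in the table only 20 were tested, 1 higher and 7 lower. Their transcripts mostly lack poly(A) tails and have near-identical copies, so these counts are uncertain.

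Immediate early genes, the first transcripts that growth factors and stress induce, stood far below their untreated level. Of 25 tested, 23 fell and 2 rose, with a median of −1.94. WT cells also had 23 lower and 2 higher (median −1.82). NR4A1, an orphan nuclear receptor, had 31.4, 36.9 and 36 CPM at 24 h, against 634, 733 and 756 CPM untreated (−4.34 ± 0.09). EGR1, a zinc finger factor, had 55.6, 58.6 and 71.2 CPM at 24 h, against 492, 542 and 495 CPM untreated (−3.03 ± 0.09), JUNB fell by 2.59 ± 0.04 and FOS by 3.14 ± 0.14. The members that rose were MYC, with 232, 244 and 267 CPM at 24 h against 156, 151 and 151 CPM untreated (0.70 ± 0.04), and KLF2 (0.84 ± 0.09). Feedback genes of MAP kinase signalling were mixed, with 4 of 12 higher and 6 lower (median −0.28). DUSP2, a nuclear phosphatase, had 24.7, 23.9 and 27.1 CPM at 24 h, against 375, 471 and 466 CPM untreated (−4.12 ± 0.11), and SPRY2, an inhibitor of receptor signalling, fell by 2.35 ± 0.09. The labels state that treatments were added at set times before collection and give untreated wells at 0 h only, so time in culture and treatment cannot be told apart where they differed.

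NF-kB genes and cytokines were lower for 19 of 25 and higher for 4 (median −1.01). CXCL8, the neutrophil chemokine IL-8, had 10.4, 13.7 and 12.3 CPM at 24 h, against 206, 179 and 183 CPM untreated (−3.94 ± 0.20), while WT cells had 113, 125 and 134 CPM at 24 h and 181, 135 and 139 CPM untreated (difference −3.64 ± 0.25). CCL20, a lymphocyte chemokine, fell by 3.26 ± 0.14 and LIF, an IL-6 family cytokine, by 1.39 ± 0.04. RELA, the main activating subunit, rose by 0.31 ± 0.04, and NFKBIB, an inhibitor of it, by 0.92 ± 0.06. Interferon and antigen presentation genes were lower for 18 of 23 and higher for 2 (median −0.63), with IFI6, an interferon-induced membrane protein, at −2.18 ± 0.10, B2M, the light chain of MHC class I, at −0.41 ± 0.03 and the peptide transporter TAP2 against them at 1.04 ± 0.07.

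Genes of the extracellular matrix, of adhesion and of the cytoskeleton were lower. Of 34 collagen genes 25 fell and 3 rose (median −1.14), and of 36 matrix glycoproteins and matrix enzymes 33 fell and 1 rose (median −0.93). COL1A1, the main bone collagen chain, had 522, 488 and 472 CPM at 24 h, against 1385, 1389 and 1469 CPM untreated (−1.52 ± 0.04). THBS1, thrombospondin, had 191, 192 and 177 CPM at 24 h, against 1346, 1277 and 1393 CPM untreated (−2.84 ± 0.05), and TIMP2, an inhibitor of metalloproteinases, fell by 2.81 ± 0.04. TNC, tenascin C, was the matrix glycoprotein that rose, with 185, 187 and 179 CPM at 24 h, against 91.9, 86 and 86.7 CPM untreated (1.06 ± 0.04). Of 29 integrins and cadherins 20 fell and 4 rose (median −0.80), for instance ITGB3, the beta chain of the vitronectin receptor (−2.76 ± 0.11), and ITGB1 (−0.77 ± 0.02). Of 26 actin and contractile genes 23 fell and 2 rose (median −0.63), with the tropomyosin gene TPM1 at −1.65 ± 0.04 and vinculin (VCL) at −1.21 ± 0.03, while profilin (PFN1) rose by 0.93 ± 0.03. CTGF, a matrix-associated target of YAP and TEAD, had 284, 297 and 313 CPM at 24 h, against 2419, 2463 and 2430 CPM untreated (−3.03 ± 0.06). Over 23 YAP and TEAD targets 17 fell and 4 rose (median −0.52). Axon guidance genes, which also steer migration outside the nervous system, were lower for 34 of 46 and higher for 4 (median −0.77), with the semaphorin SEMA3F at −2.74 ± 0.07 and the Eph receptor EPHB1 against them at 1.69 ± 0.24. The WT cells moved in the same direction, with medians of −1.35 for collagens and −0.67 for actin genes.

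Nuclear and mitochondrial genes for respiration went apart. Of the 13 protein-coding genes of the mitochondrial genome 11 fell and 2 rose (median −0.26). MT-CO1, a core subunit of cytochrome oxidase, had 10847, 10788 and 11183 CPM at 24 h, against 15210, 15474 and 15314 CPM untreated (−0.49 ± 0.02). Nuclear subunits of the respiratory chain rose for 35 of 60 and fell for 16 (median 0.23), with CYC1, cytochrome c1, at 409, 402 and 424 CPM at 24 h, against 197, 191 and 180 CPM untreated (1.13 ± 0.03). For 36 of the 60 the change was more positive than in WT cells and for 0 more negative. Mitochondrial chaperones and proteases rose for 16 of 17 and fell for 1 (median 0.70). HSPA9, mortalin, rose by 1.04 ± 0.03, TRAP1, the mitochondrial HSP90, by 1.32 ± 0.04 and LONP1, the matrix protease, by 0.70 ± 0.04, and OMA1, an inner-membrane protease that relays mitochondrial stress to the ISR, fell (−0.68 ± 0.10). Glycolysis and pentose phosphate genes rose for 14 of 26 and fell for 9 (median 0.15, against −0.16 in WT cells). LDHA, lactate dehydrogenase, had 884, 898 and 908 CPM at 24 h, against 660, 647 and 617 CPM untreated (0.49 ± 0.03), while WT cells had 639, 653 and 641 CPM at 24 h and 859, 809 and 819 CPM untreated (difference 0.85 ± 0.04). ENO1, enolase, rose by 0.94 ± 0.02. Of 15 hypoxia response genes 3 rose and 6 fell. VEGFA, the vascular growth factor, fell by 0.69 ± 0.06 in knockout cells and rose by 1.10 ± 0.05 in WT cells, and EPAS1 (HIF-2 alpha) fell by 2.14 ± 0.08 while HIF1A rose by 0.74 ± 0.03.

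Protein quality control outside the ER showed other directions than the ER list. Of 14 chaperonin genes, which fold actin and tubulin, 13 rose and 0 fell (median 0.61), with CCT6A at 1.05 ± 0.03. Of 37 proteasome genes 30 rose and 2 fell (median 0.48). PSMD2, of the regulatory particle, had 902, 906 and 952 CPM at 24 h, against 426, 400 and 397 CPM untreated (1.18 ± 0.03), and PSMB9, an interferon-induced catalytic subunit, fell by 1.40 ± 0.22. Cytosolic heat shock genes were divided, with 10 of 20 higher and 8 lower (median 0.06). HSPB1 fell by 0.96 ± 0.03 and STIP1, a co-chaperone of HSP70 and HSP90, rose by 0.68 ± 0.03. HSPA1A and HSPA1B, near-identical copies between which reads may be split, fell by 1.23 ± 0.07 and 1.09 ± 0.07. Of 21 genes of the NRF2 antioxidant pathway 8 rose and 10 fell (median −0.18, against 0.56 in WT cells), and for 15 the change was below that in WT cells. NFE2L2, the gene of NRF2, had 91.2, 94.2 and 95.8 CPM at 24 h, against 133, 143 and 144 CPM untreated (−0.58 ± 0.04). FTH1, ferritin heavy chain, fell by 0.53 ± 0.03 and GPX4, which removes lipid peroxides, by 0.67 ± 0.04, while SRXN1, sulfiredoxin, rose by 0.67 ± 0.04. BCL2 family and death receptor genes were evenly divided, 10 of 26 higher and 10 lower. MCL1, a short-lived survival factor, had 322, 320 and 329 CPM at 24 h, against 604, 612 and 610 CPM untreated (−0.91 ± 0.03), BID, a death agonist cleaved by caspase-8, rose by 1.62 ± 0.11 and BCL2 by 0.94 ± 0.09. TNFRSF10B (DR5), the death receptor induced by CHOP, fell by 0.12 ± 0.04, against a rise of 0.91 ± 0.04 in WT cells.

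The most changed genes were mostly losses. CXCL14, a chemokine, had 1.35, 0.289 and 0.139 CPM at 24 h, against 80.8, 94.5 and 94.8 CPM untreated (−7.42 ± 0.18), and the potassium channel gene KCNA1 had 0.192, 0.217 and 0.558 CPM at 24 h, against 42.9, 50.9 and 53.6 CPM untreated (−7.16 ± 0.23). IGFBP5, a binding protein of insulin-like growth factors stored in bone matrix, had 4.61, 3.11 and 3.9 CPM at 24 h, against 220, 190 and 212 CPM untreated (−5.76 ± 0.12). MIAT, a long non-coding RNA, had 7.11, 6.79 and 5.78 CPM at 24 h, against 284, 275 and 294 CPM untreated (−5.45 ± 0.09). For each of these 4 genes every library at 24 h was far below every untreated one. The zinc finger genes EGR2 and EGR4 (−6.05 ± 0.21 and −6.70 ± 0.38), the orphan receptor gene NR4A3 (−5.28 ± 0.15) and the growth factor gene PDGFB (−5.57 ± 0.36) also fell. The gains named in this paragraph were smaller than these losses. The highest change of any tested gene was nevertheless a gain (8.98). RP11-603J24.9, which rose from 0 counts untreated, is given by counts below. CDKL1, a kinase gene related to the CDKs, had 33.2, 34.3 and 32.1 CPM at 24 h, against 4.26, 4 and 4.14 CPM untreated (3.00 ± 0.13), FERMT1, a kindlin that activates integrins, rose by 2.70 ± 0.12, CD68, an endosomal glycoprotein best known from macrophages, by 3.33 ± 0.26, and IL15RA, the interleukin-15 receptor chain, by 3.12 ± 0.36. In absolute terms ENO1, the linker histone gene H1F0, RPL8, YBX1, RPLP0 and RPL4 gained most CPM, and MT-CO1, MT-RNR2, CTGF, PLEC, AHNAK and ACTB lost most. H1F0 had 1714, 1822 and 1870 CPM at 24 h, against 783, 739 and 722 CPM untreated.

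Some genes had 3 counts or fewer over 1 of the groups, 17 among those called higher and 80 among those called lower, and are given by counts. KIAA1210 had 2 counts at 24 h and 336 untreated, a ratio of 178 (95% exact interval 49.0 to 1479). BCL2A1, an NF-kB-induced survival gene, had 45 counts at 24 h and 3 untreated, a ratio of 14.1 (4.53 to 71.0). RP11-603J24.9, on chromosome 12, had 42, 77 and 88 counts at 24 h and 0 untreated and was at least 65.0-fold higher when that 0 is read as 3 counts over the group, and the exact 95% interval of the ratio began at 52.4. In WT cells its order was the opposite, with 3 counts at 24 h and 123 untreated. INO80B-WBP1, a readthrough model, passed the test at 24 h with 65, 2 and 1 counts, so 1 library decides it. Counting error alone is covered by such intervals and floors.

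By gene class, protein-coding genes were called higher for 4775 and lower for 4498 of 12535, and intergenic long non-coding RNAs were called higher for 192 and lower for 295 of 1177, with a median of −0.19. These classes cover the genes whose identifiers matched GENCODE 29.

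The test of the difference asks which of these changes depended on the genotype. Subtracting the WT change from the knockout change gave a call for 29.8% of tested genes, positive for 3379 (17.7%) and negative for 2305 (12.1%). By at least 2-fold it was positive for 1.56% and negative for 3.19%. Both genotypes were called higher for 4892 genes and lower for 4808, which is 39.3% and 38.6% of the knockout calls. Only 2.79% of the knockout calls were lower in knockout and higher in WT cells (347 genes), and 1.61% the other way (201 genes). Across 16247 genes the 2 changes correlated at r = 0.786, a description of genes that are not independent replicates. The negative differences held the ISR lists: 18 of 20 effectors and 12 of 17 transcription factors were negative, with 0 and 2 positive. OLAH, a thioesterase of fatty acid synthesis, had 0.865, 0.94 and 0.767 CPM in knockout cells at 24 h, against 3.22, 2.05 and 2.59 CPM untreated, while WT cells averaged 93.2 ± 4.93 CPM at 24 h and 1.31 ± 0.645 CPM untreated (difference −7.64 ± 0.31). DDIT4 differed by −5.31 ± 0.14, and ANK2, a membrane scaffold gene, by −5.31 ± 0.31. HSPA5 differed by −1.85 ± 0.04 and HERPUD1 by −2.40 ± 0.06, and both rose in WT cells and fell in knockout cells. On the positive side stood the muscle gene SLN, with 44 counts in knockout cells at 24 h and 147 untreated, against 0 and 90 counts in WT cells, and MYH16, a myosin gene that is a pseudogene in humans (2.65 ± 0.35). TMEM100, a membrane protein gene, fell less than in WT cells (difference 2.48 ± 0.48). Positive differences were called for 12 of 14 chaperonin genes, 21 of 27 SR and hnRNP proteins, 24 of 34 ribosome biogenesis genes and 51 of 86 cytosolic ribosomal proteins.

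**Figure D4:**
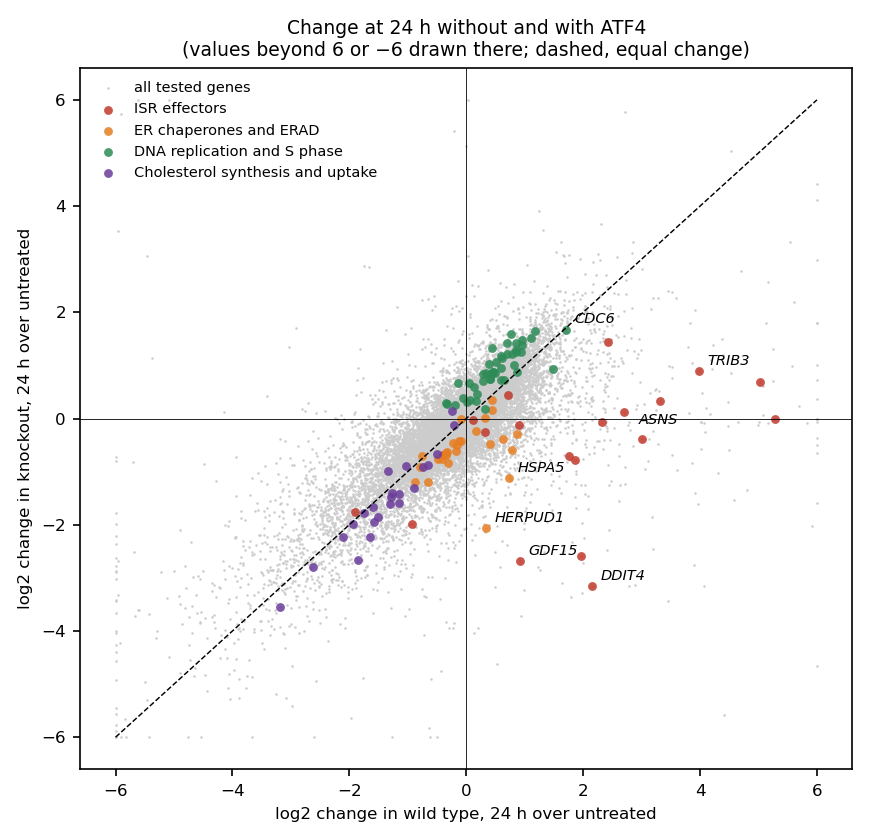
The x axis is the log2 change in wild-type cells and the y axis that in knockout cells, each 24 h over its own untreated group; grey points are all tested genes, coloured points the members of 4 lists, and the dashed line marks equal change. Most ISR effectors and ER chaperones lie below the line, most replication genes above it, and cholesterol genes along it at the lower left.

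By 16 h the knockout state was mostly reached. Between 24 h and 16 h, 7.35% of tested genes were higher and 10.2% lower, and by at least 2-fold only 0.541% and 0.268%. Against 16 h, 51 of 86 cytosolic ribosomal proteins were higher and 1 lower (median 0.11), of 15 amino acid transporters 7 were higher and 0 lower (median 0.20), and of 29 integrins and cadherins 1 was higher and 13 lower (median −0.22). Of 25 immediate early genes 9 were higher and 5 lower, with FOS at 1.32 ± 0.30 and NR4A1 at 1.00 ± 0.15 above 16 h, and of 34 collagens 11 were lower and 0 higher. HSPA5 was higher by 0.28 ± 0.03 and PPP1R15A by 0.43 ± 0.06 at 24 h than at 16 h. The changes over the same untreated libraries showed different paths to 24 h. The comparisons share their controls, so their values are only set side by side. Immediate early genes had a median of 0.60 at 2 h, −0.32 at 4 h, −0.87 at 8 h, −1.89 at 16 h and −1.94 at 24 h. NF-kB genes peaked later, with medians of 0.36 at 2 h, 1.02 at 4 h and 0.65 at 8 h before −1.20 at 16 h and −1.01 at 24 h. Ribosome biogenesis had reached 1.13 at 8 h, and replication genes stood at 0.23 then and 0.87 at 16 h. DDIT3 averaged 63.9 ± 6.0 CPM at 2 h and 24.5 ± 0.873 CPM at 16 h, and ATF3 averaged 396 ± 34.6 CPM at 2 h and 40 ± 2.93 CPM at 16 h (SD, n = 3 each).

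**Figure D5:**
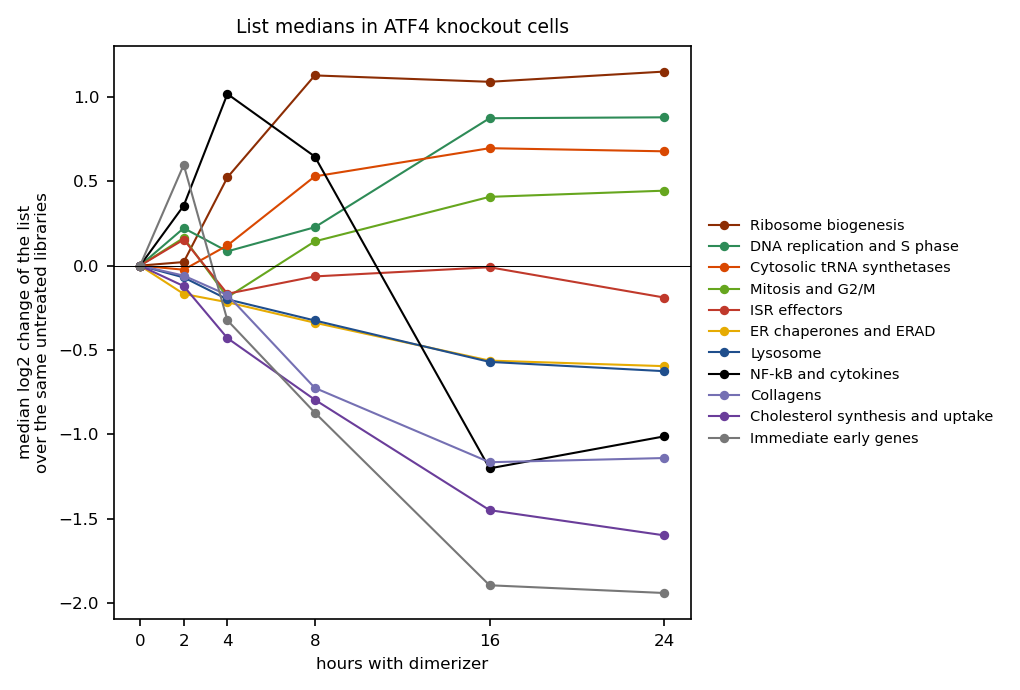
Lines give the median log2 change of 11 lists in knockout cells at 2, 4, 8, 16 and 24 h over the same untreated libraries (0 h, set at 0). Immediate early and NF-kB genes go up first and end below 0, ribosome biogenesis is up by 8 h, and replication genes step up between 8 and 16 h.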

How the data were processed

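RNA was read in 36 libraries of 12 groups, 3 wells each, of which 6 form the main comparison. The deposited table holds estimated counts per gene, made by the authors with Salmon 0.9.1 on GRCh38 after FastQC 0.11.5, per the submitters' processing notes; no source used here names the annotation. The authors also deposited TPM values, used only as an alternative, since 33 of the 36 TPM columns matched the counts of the same name best and the 3 untreated knockout columns did not.

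Estimated counts were rounded to whole numbers. Genes with low counts were removed with edgeR's filterByExpr, libraries were scaled by TMM, and 12 group means were fitted over all libraries with the quasi-likelihood test of edgeR 4.0.16 (R 4.3.3). P-values were adjusted over all 19043 tested genes by Benjamini-Hochberg, with a threshold of 0.05. The difference between genotypes was tested as an interaction. The procedure was tested on simulated data. Alternatives used DESeq2 1.42.0, RLE scaling, no filter, only the groups of a contrast, a 2-fold minimum, each library left out, and limma 3.58.1 on log2(TPM + 1) and log2(TPM + 0.1).

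Named are the ISR genes described by role, the most changed genes at a mean of at least 1 CPM without overlap, the largest gains and losses in CPM, the members of each list with the smallest adjusted p, members against the direction of a list, and defining members of a pathway. Members and lists were chosen with earlier results of these data known. Promoters are RefSeq windows (GRCh38.p14), and positions of genes come from GENCODE 29, matched for 53330 of 57665 identifiers. Replicate numbers were not taken to pair wells, since deviations of same-numbered untreated and treated knockout libraries correlated at −0.0392, −0.0312 and −0.0383. Same-numbered knockout and WT libraries at 24 h correlated positively (0.0809, 0.133 and 0.117), and differently numbered ones at −0.0934 to −0.0271. A fit with the number as a block is given below as an alternative.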

Additional observations from a re-analysis of the deposited data

Results flagged for a closer look

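The 24 h change differed between knockout and WT cells by the test of the difference itself for the following genes, each value being the knockout change minus the WT change on the log2 scale. Among genes of the ISR the difference was 0.31 for ATF4, −0.39 for EIF2AK3, −1.34 for PPP1R15A, −0.33 for PPP1R15B, −1.36 for DDIT3, −1.74 for ATF3 and −1.08 for ATF5. Among its targets it was −3.09 for TRIB3, −3.38 for CHAC1, −2.57 for SESN2, −5.31 for DDIT4, −3.02 for ASNS, −2.69 for SLC7A11, −2.47 for VLDLR, −3.61 for GDF15 and −4.54 for ADM2. CHAC1 rests on 4 and 5 counts in knockout cells and was not called without knockout library 2 untreated (−1.85) or library 3 at 24 h (−2.78). In the ER it was −1.85 for HSPA5 and −1.95 for XBP1.

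Outside these pathways only a selection of genes is listed. Its largest negative differences were −7.64 for OLAH, −5.31 for ANK2, −5.26 for FKBP9P1, −4.55 for ZNF815P and −4.33 for SCEL. Its largest positive ones were 2.74 for SMG1P4, 2.65 for MYH16, 2.48 for TMEM100, 2.43 for CERS1 and 2.41 for RP11-73M18.2. Over all tested genes the difference ran from −10.9 to 14.1, so larger ones exist outside the selection. RP11-603J24.9, left out, had 207 counts in knockout cells at 24 h and 0 untreated, against 3 and 123 in WT cells. FKBP9P1, ZNF815P and SMG1P4 are pseudogenes whose reads may be shared with their parent genes. CERS1 was not called by DESeq2 (2.36, adjusted p = 0.053) nor without any 1 of 4 libraries, at 2.04 to 2.12.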

How the results depend on the processing

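Counts of genes called higher and lower stayed within 1.5 times of the main ones (6176 and 6282 at 24 h over untreated) under RLE scaling, DESeq2, no filter, only the groups of the contrast, and each library left out. With a 2-fold minimum they were 1158 and 2525 at 24 h over untreated, 297 and 608 for the difference between genotypes, and 103 and 51 at 24 h over 16 h. The matching TPM columns are untreated columns 1 and 2 and the 3 treated columns, so the untreated group is smaller there. On them limma called 4301 and 5100 genes with log2(TPM + 1) and 4292 and 4958 with log2(TPM + 0.1). The calls of DDIT3, SLC7A11, EIF2AK1, CTH, CCNB1 and PTTG1 were lost under both (adjusted p 0.055 to 0.903), those of TNFRSF10B and SLC3A2 with log2(TPM + 0.1) alone. With log2(TPM + 1) and all columns, 3258 and 4013 were called. This alternative contains the untreated column that stands apart. With it, the change turned to −0.0306 for SLC7A11, 0.0948 for TNFRSF10B, −0.317 for CCNB1 and 0.122 for VEGFA. Leaving out single libraries gave 5753 to 6086 higher and 5832 to 6100 lower genes at 24 h, 2705 to 3236 and 2065 to 2396 for the difference, and 1005 to 1208 and 1383 to 1665 at 24 h over 16 h. The difference of CEBPG, near 0, changed sign to 0.00266 with no filter and lay between −0.117 and 0.0299 without single libraries. It was not called.

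Deviations of same-numbered knockout and WT libraries at 24 h correlated at 0.0809, 0.133 and 0.117, and each of these libraries correlated best with its own number, a hint from the data and not the design. With the replicate number as a block, 6177 genes were higher and 6288 lower at 24 h over untreated, 3403 and 2330 for the difference, and 1378 and 1952 at 24 h over 16 h. With 3 wells per group, the depth limits what small changes of low genes can show.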
